A study of Mus musculus with 6 samples.

Results

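The gene set described here consists of 38 lysosomal genes of the mouse, namely 9 proteases, 5 membrane proteins, 11 glycosidases, 4 sulfatases, 6 genes of lipid handling, 2 subunits of the proton pump and the transcription factor gene Tfeb. They were taken by symbol from a fixed list, and all 38 were found once among the 24147 genes or gene copies in the deposited tables. RNA was measured by sequencing in wild-type C57BL/6 mice aged 2 months, with no transgene or drug named in the labels. The fiber cells of the lens were taken out of the living eye through the cornea, as in cataract surgery, and the capsule with the epithelial cells still on it was frozen either at once (0 h, 3 libraries) or 24 h later (3 libraries). Both groups therefore carry the operation, and the 0 h group is tissue fresh from it rather than an unoperated lens. The libraries are called biological triplicates in the series, and the sources used here do not give how many animals or eyes each one holds.

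Lysosomes are acidic compartments in which proteases, glycosidases, sulfatases and lipases break down material brought in by endocytosis, phagocytosis and autophagy. A proton pump keeps the inside acidic, membrane proteins such as Lamp1 and Lamp2 line the boundary, and inherited loss of individual enzymes causes storage diseases. Transcription factors of the MiT-TFE family, which includes TFEB, bind the sequence CACGTG in promoters of many lysosomal genes and raise their transcription when they enter the nucleus. In the lens, organelles including lysosomes are lost as fiber cells mature, while the epithelium keeps them.

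Libraries held 8069314 to 10862573 counts in genes, with 16248 to 16962 genes detected. Two-sided tests were made on 13956 genes with sufficient counts, and all 38 lysosomal genes were among them. Levels are given as CPM, counts scaled to library size, after TMM scaling, as mean ± SD of 3 libraries, and a gene was called higher or lower when its adjusted p in edgeR was under 0.05. The lens label was borne out by Cryaa at 88070.5 ± 22743 CPM and Cryab at 25173 ± 7056 CPM at 0 h, both crystallins of the lens. Markers of other eye tissues were present too, and photoreceptor markers summed to 1968 to 6041 CPM at 0 h and 1068 to 4829 CPM at 24 h. Among them Gnat1, for a subunit of rod transducin, was at 893 ± 488 CPM at 0 h. RNA of the whole sample was measured, so fewer cells of a type and less RNA per cell cannot be told apart.

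The lysosomal genes did not move as a block after surgery. At 24 h 4 of the 38 were higher (Ctsc, Cd63, Ctsk and Ctsz), 7 were lower (Ids, Arsb, Gaa, Hexa, Ppt1, Man2b1 and Psap) and 27 were not called. Calls made up 28.9% of the 38 genes and 28.2% of all genes tested, so the share of genes changed lay near the background. The directions were divided by role, with 4 of 14 proteases and membrane proteins higher and 0 lower, and 0 of 21 glycosidases, sulfatases and lipid-handling genes higher and 7 lower. Of all genes tested 15.2% were higher and 13.0% lower. The median log2 fold change of 24 h over 0 h was -0.12 over the 38 genes and -0.03 over all genes tested. It was 0.33 over proteases and membrane proteins and -0.39 over the 21 genes of the other enzyme roles. These pools join roles whose calls went the same way in these same data. Further genes of these kinds, described below, did not split this way. Other proteases and nucleases had 1 higher, 2 lower and a median of -0.36. Other glycosidases, sulfatases and activators had 2 higher, 2 lower and a median of -0.35.

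The counts of 0 came from edgeR, and at an unadjusted p under 0.05 there was 1 higher gene among the 21 and 0 lower genes among the 14. DESeq2 and limma-voom also gave 0 in both places. With libraries scaled by their totals alone the split over all 38 genes was 7 higher and 6 lower, and among the 21 it was 1 higher and 6 lower. That scaling put the median log2 change of all genes at 0.06 and of the 38 genes at -0.03. In a test against a 1.5-fold change, 2 of the 38 genes were higher, Ctsc and Cd63, and 0 were lower, where an unadjusted p under 0.05 gave 3 higher and 2 lower. When 0 h replicate 1 was left out 3 genes were higher and 3 lower, for 0 h replicate 2 the counts were 2 and 7, and for 0 h replicate 3 they were 2 and 2. Leaving out 24 h replicate 1 or 24 h replicate 2 gave 4 higher and 3 lower each, and leaving out 24 h replicate 3 gave 2 higher and 10 lower. With 24 h replicate 3 left out 1 of the 14 proteases and membrane proteins was lower (Tpp1), and with 24 h replicate 1 left out 1 of the 21 was higher (Asah1).

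**Figure D1:**
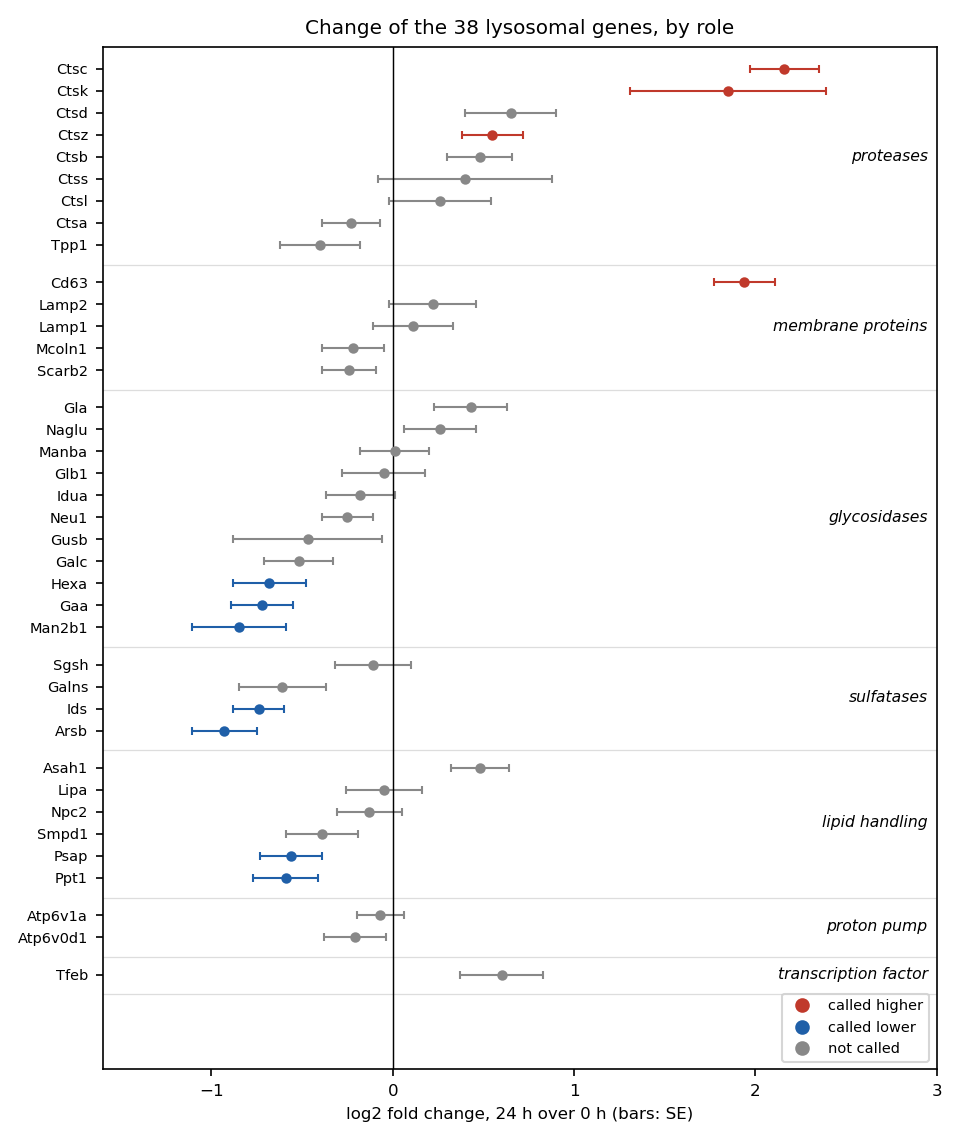
Log2 fold change of 24 h over 0 h for each of the 38 lysosomal genes, grouped by role, with bars of 1 standard error (n = 3 libraries a time). All 4 genes called higher lie among the proteases and membrane proteins, and all 7 called lower lie among the glycosidases, sulfatases and lipid-handling genes.

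The 0 h and 24 h values did not overlap in 15 of the 38 genes, 8 of them higher and 7 lower at 24 h. Of all genes tested 44.7% did not overlap, 22.9% being higher and 21.8% lower. Replicate 3 stood out among these genes at both times. At 24 h 30 of the 38 had their highest value in replicate 3, against 35.2% of all genes tested, and 28 had their lowest in replicate 2, against 34.9%. At 0 h 30 of the 38 were highest in replicate 3, also against 34.9% of all genes tested. Photoreceptor markers ran the other way, with summed levels of 3787, 6041 and 1968 CPM in 0 h replicates 1 to 3 and 3016, 4829 and 1068 CPM in 24 h replicates 1 to 3. With their summed log2 level as a covariate, an alternative chosen after the data were seen, 3 lysosomal genes were higher and 12 lower. The median coefficient of variation of the 38 genes was 13.9% at 0 h and 19.3% at 24 h, against 16.6% and 17.9% over all genes tested.

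Tfeb encodes the transcription factor best known for raising lysosomal genes (chromosome 17, 47737037 to 47792416 on mm10). Its level was 22.9, 18.8 and 15.7 CPM in 0 h replicates 1 to 3 and 34.9, 21.7 and 31.1 CPM in 24 h replicates 1 to 3. The 24 h values of replicates 1 and 3 lay above all 0 h values, while 24 h replicate 2 fell within the 0 h range. The log2 fold change was 0.60 ± 0.23 (SE), with an adjusted p of 0.0803, and adjusted p ran from 0.0329 to 0.688 over 16 alternatives. Without 24 h replicate 2 the adjusted p was 0.0329 and the log2 fold change 0.78, and with library totals alone the adjusted p was 0.0473.

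Promoters of the lysosomal genes were searched for CACGTG, which reads the same on both strands, in RefSeq windows (GRCm38.p6) from 250 bases before to 50 bases after the annotated start. A window was given for 35 of the 38 genes, and 12 of these 35 (34.3%) held CACGTG, against 8.09% of 27025 genes and 11.5% of the 10475 tested genes with a window. The longer palindrome TCACGTGA, which contains CACGTG, stood in 17.1% of the 35 windows, in 1.12% of all windows and in 2.05% of those of tested genes. Extended by a further G in front and C behind, it stood in 0 of the 35, in 0.37% of all windows and in 0.754% of those of tested genes. In the 150 bases before the start 25.7% of the 35 held CACGTG, against 4.92% of all genes and 7.1% of tested genes. These matches are letters in a window, and binding was not measured.

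The following stretches are shown as examples of the motif in proteases, membrane proteins, glycosidases and proton pump genes whose levels are described below. They are read 5′ to 3′ on the gene's strand, with CACGTG in capitals. Ctsl, Glb1, Naglu and Sgsh also held 1 copy each and are not shown. Lamp1 held 4 copies, Ctsa, Ctsd, Mcoln1 and Gla 2 each, and Atp6v0d1, Atp6v1a and Gaa 1 each. The stretches lie at chr2:164833746-164833798 (plus strand) for Ctsa, chr7:142387905-142388077 (minus) for Ctsd, chr8:13159085-13159166 (plus) for Lamp1, chr8:3500433-3500494 (plus) for Mcoln1, chrX:134601179-134601247 (minus) for Gla, chr11:119267808-119267843 (plus) for Gaa, chr8:105566047-105566082 (minus) for Atp6v0d1 and chr16:44139370-44139405 (minus) for Atp6v1a.
Ctsa: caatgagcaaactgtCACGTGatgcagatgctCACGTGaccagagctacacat
Ctsd: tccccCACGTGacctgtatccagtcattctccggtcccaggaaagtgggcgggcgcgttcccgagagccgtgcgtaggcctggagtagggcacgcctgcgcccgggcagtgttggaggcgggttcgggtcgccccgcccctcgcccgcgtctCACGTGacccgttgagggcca
Lamp1: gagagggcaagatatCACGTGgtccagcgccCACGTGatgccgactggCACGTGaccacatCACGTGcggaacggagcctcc
Mcoln1: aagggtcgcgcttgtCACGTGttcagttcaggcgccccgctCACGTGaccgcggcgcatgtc
Gla: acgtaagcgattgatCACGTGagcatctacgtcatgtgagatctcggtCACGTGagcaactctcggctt
Gaa: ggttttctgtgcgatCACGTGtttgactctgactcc
Atp6v0d1: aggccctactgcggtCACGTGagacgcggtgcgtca
Atp6v1a: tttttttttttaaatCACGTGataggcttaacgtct

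The lysosomal genes with CACGTG in the window were mostly not called, as were 10014 of all 13956 genes tested. Of the 12, 0 were higher, 1 was lower (Gaa) and 11 were not called, with a median log2 fold change of -0.06. Of the 23 genes whose window lacked these letters 4 were higher, 6 lower and 13 not called, with a median of -0.24. Among the 12 edgeR gave 1 higher gene, Ctsd, at an unadjusted p under 0.05, and Ctsd was also the 1 higher gene called by DESeq2, while limma-voom gave 0. The difference between these groups of genes was not tested. Calls among all tested genes with CACGTG were not counted. The windows of the 4 genes that rose, Ctsc, Cd63, Ctsk and Ctsz, held no CACGTG.

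Among the proteases Ctsc changed most. It encodes cathepsin C, a dipeptidyl peptidase that trims and activates the serine proteases of granulocytes and other immune cells (chromosome 7, 88278093 to 88310875). Ctsc was at 46.7, 51.0 and 59.7 CPM in 0 h replicates 1 to 3 and at 181, 259 and 261 CPM in 24 h replicates 1 to 3. Every 24 h library was above every 0 h library, and the lowest 24 h value was that of replicate 1. The gene rose 4.46-fold, a log2 fold change of 2.16 ± 0.19 (SE, adjusted p = 0.000164), and was called in all 16 alternatives, with adjusted p from 3.38e-23 to 0.00202.

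Ctsk encodes cathepsin K, the collagen-degrading cysteine protease of osteoclasts, and had the lowest level per length of the 38 genes (chromosome 3, 95499210 to 95509387). Only 20, 14 and 6 counts were read at 0 h and 44, 24 and 66 at 24 h, which corresponds to 2.00, 1.4 and 0.732 CPM and to 5.63, 2.55 and 6.98 CPM. The groups did not overlap, but 24 h replicate 2 lay close to 0 h replicate 1. Ctsk rose 3.60-fold, with a log2 fold change of 1.85 ± 0.54 (SE) and an adjusted p of 0.0341, from 0.00829 to 0.101 over 15 alternatives. The adjusted p was 0.0929 without 0 h replicate 2, 0.101 without 0 h replicate 3, 0.082 without 24 h replicate 1 and 0.0965 without 24 h replicate 3. With limma-voom it was 0.0663.

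Ctsz encodes cathepsin Z, a carboxypeptidase (chromosome 2, 174427494 to 174438992). It was at 61.1, 66.6 and 76.7 CPM at 0 h and 83.3, 93.7 and 122 CPM at 24 h, in the order of replicates 1 to 3. Replicate 3 was highest at both times and the groups did not overlap. Ctsz rose 1.46-fold, by 0.55 ± 0.17 (SE) on the log2 scale, with an adjusted p of 0.0436 and a range of 0.0127 to 0.809 over 16 alternatives. The value of 0.809 came from the test against a 1.5-fold change. The call of Ctsz was lost when most single libraries were left out. Adjusted p was 0.107, 0.116 and 0.0546 without 0 h replicates 1, 2 and 3, and 0.0647 and 0.123 without 24 h replicates 2 and 3.

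The most abundant proteases were higher on average at 24 h but were not called. Ctsd, which encodes the aspartic protease cathepsin D, was at 984, 1089 and 1151 CPM at 0 h and 1437, 1277 and 2342 CPM at 24 h. Its groups did not overlap, and 24 h replicate 3 stood far above the other 24 h libraries. The log2 fold change was 0.65 ± 0.25 (SE, adjusted p = 0.086), and 0.34 without that library. DESeq2 called it (adjusted p = 0.0257), within a range of 0.0257 to 0.613 over 16 alternatives.

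Ctsb, for the cysteine protease cathepsin B, was at 525, 509.5 and 604 CPM at 0 h and 747, 640.1 and 901 CPM at 24 h. Again every 24 h library was above every 0 h library. Its log2 fold change was 0.48 ± 0.18 (SE, adjusted p = 0.0806), and the gene was called by DESeq2 (adjusted p = 0.0261) and with library totals alone (0.04), within a range of 0.0261 to 0.959. Exons of Ctsb share 774 bases with those of Fdft1 on the opposite strand in the GENCODE annotation of GRCm38. The sources used here do not say whether reads were counted by strand, so reads of both genes in that stretch cannot be told apart.

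Ctsl, for cathepsin L, had the highest level per length of the 38 genes. Its values were 1729.7, 1117 and 1994 CPM at 0 h and 1562, 1653 and 2580 CPM at 24 h, with 0 h replicate 2 the lowest and 24 h replicate 3 the highest. The groups overlapped, and the log2 fold change was 0.26 ± 0.28 (SE, adjusted p = 0.541). Ctss, for cathepsin S of antigen-presenting cells, was at 8.02, 10 and 11 CPM at 0 h and 8.57, 5.63 and 23.9 CPM at 24 h. Only 24 h replicate 3 lay above the 0 h range, and 24 h replicate 2 lay below it. The log2 fold change of 0.40 ± 0.48 (SE, adjusted p = 0.588) became -0.45 without replicate 3 of 24 h.

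Both remaining proteases were lower on average and were not called. Ctsa, for the carboxypeptidase that protects β-galactosidase and sialidase in a complex, was at 132 ± 12.0 CPM at 0 h and 113 ± 19.1 CPM at 24 h. Its exons share 324 bases with Neurl2 and 495 with Pltp, and those of Ctsz share 10 bases with Nelfcd, all on opposite strands. Tpp1, for tripeptidyl peptidase, was at 219.9 ± 21.3 and 166 ± 52.2 CPM, with a log2 fold change of -0.40 ± 0.22 (SE, adjusted p = 0.219). Without 24 h replicate 3 Tpp1 was called lower, at -0.67 with an adjusted p of 0.0317, within a range of 0.0149 to 1.0 over 16 alternatives.

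Markers of immune cells were examined over the same interval, because Ctsc, Ctsk, Ctss and Ctsz are also expressed in such cells. Of 12 neutrophil markers found 6 passed the filter on low counts, some of them through their 24 h counts alone, and these 6 were higher. The sum over the 12 went from 6.213 to 16.59 CPM at 0 h to 97.83 to 185 CPM at 24 h. Their most abundant genes were Itgam (37.3 ± 20.6 CPM at 24 h) and Csf3r (37.6 ± 10.7 CPM at 24 h), which encode an integrin subunit and the receptor for granulocyte colony-stimulating factor, and Elane was at 0 in every library. Of 16 tested macrophage markers 3 were higher (18.8%) and 4 lower (25.0%). Among all genes tested 15.2% were higher and 13.0% lower. The sum of the macrophage markers ranged from 95.99 to 221 CPM at 0 h and from 139 to 261 CPM at 24 h. None of the 17 found was at 0 in every library. Csf1r, the receptor of macrophage colony-stimulating factor, was lower (31.9 ± 13.6 and 12.5 ± 5.50 CPM), with overlapping groups and a call in 10 of 16 alternatives. The 3 higher markers were Cd14 (9.87-fold), Cd68 (5.85-fold) and Tyrobp (3.48-fold), each called in all 16 alternatives, and the other lower ones were Cx3cr1, Cd163 and Mrc1. Lyz2, for lysozyme, was at 16.3 ± 4.13 and 29.5 ± 17.6 CPM and did not pass the test. The part of these cells in the lysosomal values was not tested.

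Cd63 was the membrane protein gene that rose. It encodes a tetraspanin of late endosomes, lysosomes and exosomes (chromosome 10, 128908919 to 128912818). The values were 184, 139 and 164 CPM in 0 h replicates 1 to 3 and 551, 673 and 639 CPM in 24 h replicates 1 to 3. All 24 h libraries were far above all 0 h libraries and lay close together. Cd63 rose 3.83-fold, a log2 fold change of 1.94 ± 0.17 (SE, adjusted p = 0.000171), and was called in all 16 alternatives (5.93e-28 to 0.00159).

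The classical markers of the lysosomal membrane stayed within overlapping ranges. Lamp1, for a heavily glycosylated protein that lines the membrane, was at 425, 319 and 469 CPM at 0 h and 401, 359 and 549 CPM at 24 h. Replicate 2 was lowest and replicate 3 highest at both times. The log2 fold change was 0.11 ± 0.22 (SE, adjusted p = 0.741), and its sign was negative without 0 h replicate 2 (-0.04) or 24 h replicate 3 (-0.08). Lamp1 shares 249 exonic bases with Grtp1 on the opposite strand.

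Lamp2, the partner of Lamp1 that also acts in chaperone-mediated autophagy, was at 394, 326 and 518 CPM at 0 h and 459, 374 and 611 CPM at 24 h. The replicates had the same order as in Lamp1, and the groups overlapped. Its log2 fold change was 0.22 ± 0.24 (SE, adjusted p = 0.531). Scarb2, for an integral protein of the lysosomal membrane, was at 64.3 ± 3.38 and 54.5 ± 8.52 CPM (adjusted p = 0.266). Mcoln1, for a calcium channel of the lysosomal membrane, was at 40.4 ± 1.30 and 34.7 ± 6.74 CPM (adjusted p = 0.381). Cd63 was at 0.406 ± 0.0494 of the Lamp1 level at 0 h, as a ratio of CPM, and at 1.47 ± 0.364 at 24 h. The groups did not overlap, which restates the rise of Cd63 and is no separate support.

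**Figure D2:**
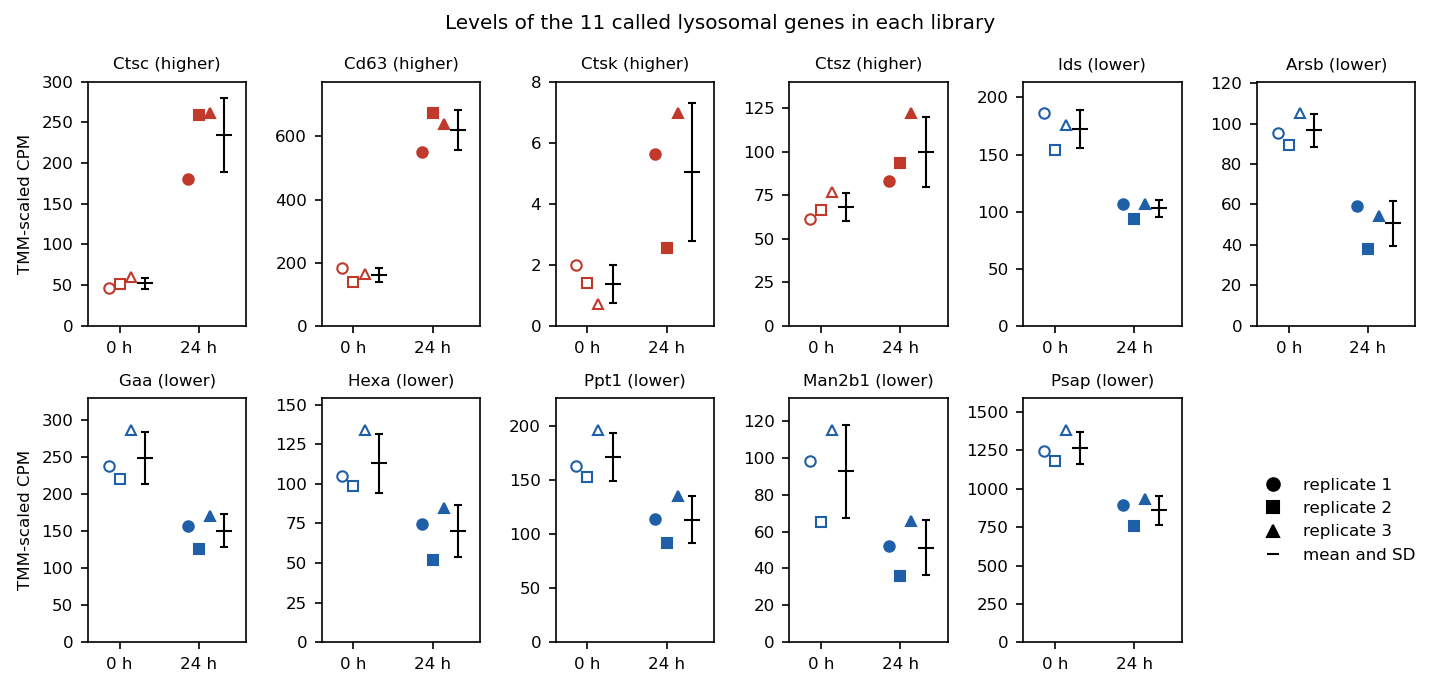
TMM-scaled CPM in each library for the 11 lysosomal genes called higher (red) or lower (blue) at 24 h, with mean and SD beside the points. The groups do not overlap except in Man2b1, and the widest gaps between times are those of Ctsc and Cd63.

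The glycosidases take sugars off glycoproteins, glycolipids and glycogen. Of 11 tested 0 were higher, 3 lower and 8 not called, with a median log2 fold change of -0.25. At an unadjusted p under 0.05 there were 0 higher and 4 lower. The share called was 27.3%, near the 28.2% of all genes tested. Gaa, for the acid α-glucosidase that breaks down glycogen (chromosome 11, 119267967 to 119285698), was at 238, 221 and 287 CPM at 0 h and 157, 126 and 171 CPM at 24 h. Every 24 h library was below every 0 h library. Gaa fell by 0.72 ± 0.17 (SE) on the log2 scale, 1.64-fold, with an adjusted p of 0.0146 and a range of 0.00113 to 0.362. Without 0 h replicate 3 the adjusted p was 0.0666.

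Hexa, for a subunit of the enzyme that degrades GM2 ganglioside (chromosome 9, 59539667 to 59565105), was at 105, 98.8 and 134 CPM at 0 h and 74.4, 52.1 and 84.5 CPM at 24 h. The groups did not overlap, and replicate 2 was lowest at both times. Hexa fell by 0.68 ± 0.20 (SE) on the log2 scale, with an adjusted p of 0.0361 and a range of 0.00244 to 0.501. The adjusted p was 0.0761 and 0.138 without 0 h replicates 1 and 3, and 0.0802 and 0.0825 without 24 h replicates 1 and 2. Hexa shares 255 exonic bases with Tmem202 on the opposite strand.

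Man2b1, for lysosomal α-mannosidase (chromosome 8, 85083269 to 85098739), was at 98.0, 65.3 and 115 CPM at 0 h and 52.1, 36.2 and 65.7 CPM at 24 h. Its groups overlapped slightly, since 24 h replicate 3 was just above 0 h replicate 2. Man2b1 fell by 0.85 ± 0.26 (SE) on the log2 scale, with an adjusted p of 0.0394 and a range of 0.000979 to 0.285. Without 0 h replicates 1 and 3 in turn the adjusted p was 0.116 and 0.143, and without 24 h replicates 1 and 2 it was 0.0967 and 0.102.

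The other 8 glycosidases ranged in log2 fold change from -0.52 to 0.43. Galc, for galactosylceramidase, was lowest at -0.52 ± 0.19 (SE, adjusted p = 0.079) and was called without 0 h replicate 2 (0.045) or 24 h replicate 3 (0.0351), within a range of 0.00519 to 0.881 over 16 alternatives. Gla, for α-galactosidase, was at 15.5 ± 0.702 and 20.8 ± 4.0 CPM with no overlap, and was not called (adjusted p = 0.142). Neu1, for sialidase, was at 37.5 ± 3.83 and 31.6 ± 2.18 CPM, also with no overlap (adjusted p = 0.242). Gusb, for β-glucuronidase, spread widely at 24 h, from 12.0 to 44.9 CPM, and was called lower without 24 h replicate 3, at -1.07 (adjusted p = 0.0367, within a range of 0.0069 to 0.955 over 16 alternatives). Glb1 shares 165 exonic bases with Tmppe on its own strand, and Idua shares 124 with Dgkq and 141 with Slc26a1 on the opposite strand. Naglu and Idua, which cleave heparan sulfate, had log2 fold changes of 0.26 and -0.18, and Glb1 and Manba, for β-galactosidase and β-mannosidase, of -0.05 and 0.01.

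The sulfatases remove sulfate from glycosaminoglycans and sulfolipids. Of 4 tested 2 were lower and 0 higher, and the unadjusted counts were 3 and 0. Of all genes tested 13.0% were lower and 15.2% higher. Ids, for the iduronate sulfatase that acts on heparan and dermatan sulfate (chromosome X, 70343070 to 70365085), was at 186, 154 and 176 CPM at 0 h and 107, 93.8 and 107 CPM at 24 h. The groups were well apart and the 24 h values lay close together. Ids fell by 0.74 ± 0.14 (SE) on the log2 scale, 1.68-fold, with an adjusted p of 0.00482 and a range of 2.76e-05 to 0.232. Arsb, for N-acetylgalactosamine sulfatase (chromosome 13, 93771679 to 93943016), was at 95.2, 89.3 and 105 CPM at 0 h and 59.3, 38.2 and 54.2 CPM at 24 h.

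No 24 h value of Arsb reached the 0 h range. Arsb fell by 0.93 ± 0.18 (SE) on the log2 scale, 1.91-fold, with an adjusted p of 0.00547 and a range of 0.000111 to 0.0824. Among the 7 genes that fell, Ids and Arsb were called in every alternative except the test against a 1.5-fold change. Galns, for the galactosamine sulfatase of keratan sulfate, had a log2 fold change of -0.61 ± 0.24 (SE, adjusted p = 0.0947) and was called without 0 h replicate 2 (0.0299) or 24 h replicate 3 (0.0496), within a range of 0.00582 to 0.679 over 16 alternatives. Sgsh, which removes sulfate from heparan chains, was at 26.8 ± 5.87 and 24.8 ± 3.65 CPM, and shares 955 exonic bases with Card14 on the opposite strand.

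In lipid handling 2 of 6 genes were lower, 0 higher and 4 not called, with an unadjusted p under 0.05 in 1 higher and 2 lower. The share called was 33.3%, against 28.2% of all genes tested. Psap, for prosaposin, the precursor of saposins that present sphingolipids to their hydrolases (chromosome 10, 60277628 to 60302600), was at 1245, 1179.5 and 1384 CPM at 0 h. At 24 h it was at 895, 756 and 935 CPM, below all 0 h libraries. Psap fell by 0.56 ± 0.17 (SE) on the log2 scale, 1.47-fold, with an adjusted p of 0.0412 and a range of 0.00213 to 0.788. The adjusted p was 0.0783, 0.0593 and 0.152 without 0 h replicates 1, 2 and 3, and 0.108, 0.132 and 0.0635 without 24 h replicates 1, 2 and 3. With library totals alone it was 0.0526 and with no filter on low counts 0.0608.

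Ppt1, for the thioesterase that takes palmitate off proteins (chromosome 4, 122836227 to 122859175), was at 163, 153 and 196 CPM at 0 h and 114, 91.5 and 135 CPM at 24 h. The groups did not overlap, with replicate 2 lowest and replicate 3 highest at both times. Ppt1 fell by 0.59 ± 0.18 (SE) on the log2 scale, with an adjusted p of 0.0375 and a range of 0.00356 to 0.7. Leaving out 0 h replicates 1, 2 and 3 gave an adjusted p of 0.0772, 0.0515 and 0.147, and leaving out 24 h replicates 1 and 2 gave 0.101 and 0.103. Ppt1 shares 129 exonic bases with Cap1 on the opposite strand.

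Asah1, for acid ceramidase, went against the direction of Psap and Ppt1 in its values, at 60.6 ± 7.47 CPM at 0 h and 84.1 ± 14.3 CPM at 24 h. Its groups did not overlap and it was not called (log2 fold change 0.48 ± 0.16 SE, adjusted p = 0.06), but it was called with library totals alone (0.0456) and without 24 h replicate 1 (0.034), within a range of 0.0217 to 0.991. Smpd1, for acid sphingomyelinase, had a log2 fold change of -0.39 ± 0.20 (SE, adjusted p = 0.185). Lipa, for the acid lipase of cholesteryl esters, was at 111 ± 13.7 and 107 ± 28.2 CPM, and Npc2, for a carrier of cholesterol, at 112 ± 17.2 and 102 ± 18.0 CPM.

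Neither of the proton pump genes was called. Atp6v1a, for the catalytic subunit on the cytosolic side, was at 143, 138 and 125 CPM at 0 h and 135, 117 and 133 CPM at 24 h. The groups overlapped, and the log2 fold change was -0.07 ± 0.13 (SE, adjusted p = 0.729). Atp6v0d1, for a subunit that joins the membrane and cytosolic sectors, was at 76.5 ± 15.6 and 66.0 ± 5.44 CPM (adjusted p = 0.383). Neither had an unadjusted p under 0.05 in edgeR or was called by DESeq2 or limma-voom.

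Sums over genes were compared between proteases and the other enzyme roles, whose calls above differed in direction. The 9 proteases together were at 3696, 3171 and 4287 CPM at 0 h and 4277, 4158 and 6593 CPM at 24 h, and the 21 glycosidases, sulfatases and lipid-handling genes were at 2893, 2628 and 3305 CPM and at 2123, 1804 and 2408 CPM. The ratio of these sums was 1.28, 1.21 and 1.30 at 0 h and 2.01, 2.30 and 2.74 at 24 h. The protease sums overlapped between times, with 4287 CPM in 0 h replicate 3 and 4158 CPM in 24 h replicate 2, and those of the 21 genes did not. The ratio did not overlap. Its sides are roles whose calls differed in direction in these same data, so the ratio restates that split and is no separate support. Moreover, 3 against 3 libraries cannot give an exact permutation p below 0.1. Much of the sum rests on few genes, since Ctsb, Ctsd, Ctsl and Psap held 56.4% to 60.7% of the counts of the 38 genes. The ratio of Ctsd to Psap alone was 0.791, 0.923 and 0.832 at 0 h and 1.61, 1.69 and 2.5 at 24 h.

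**Figure D3:**
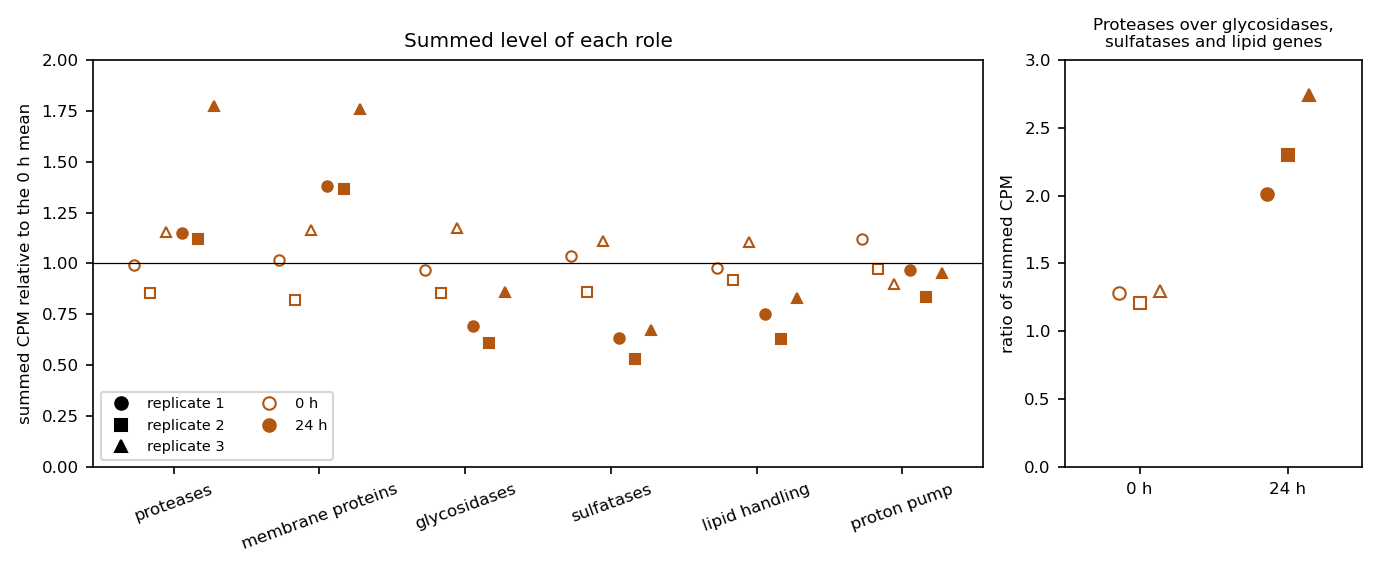
Left, summed TMM-scaled CPM of each role in each library, relative to its mean at 0 h. Right, ratio of summed CPM of proteases to that of glycosidases, sulfatases and lipid-handling genes, which was 1.21 to 1.30 at 0 h and 2.01 to 2.74 at 24 h.

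The 38 genes together took 0.731%, 0.734% and 0.85% of all gene counts in 0 h replicates 1 to 3 and 0.789%, 0.835% and 1.14% in 24 h replicates 1 to 3. The groups overlapped, and the highest share was in 24 h replicate 3. Levels per length, in CPM per kilobase of the deposited gene length, covered a wide range. Ctsl led at both times with 819 ± 228 and 980 ± 286 CPM per kilobase, followed by Ctsd with 550 ± 43.2 and 863 ± 294. The intervals of mean ± SD of Ctsl and Ctsd overlapped at both times. Psap came next at 0 h with 464 ± 38.1 CPM per kilobase, below the SD interval of Ctsd.

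Cd63 went from 134 ± 18.5 to 513 ± 51.9 CPM per kilobase and from rank 5 to rank 3, passing Lamp1 (179 ± 34.3 and 194 ± 44.3) and Psap (315 ± 34.5 at 24 h). Ctsc went from 21.2 ± 2.67 to 94.6 ± 18.4 CPM per kilobase and from rank 26 to rank 8, next to Lamp2 at 95.1 ± 23.7, from which it did not differ beyond the spread. Ctsk was last at both times, with 0.872 ± 0.402 and 3.19 ± 1.43 CPM per kilobase. Tfeb was at 6.78 ± 1.28 and 10.3 ± 2.41 CPM per kilobase. The median over the 38 genes was 31.1 CPM per kilobase at 0 h and 28.9 at 24 h.

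**Figure D4:**
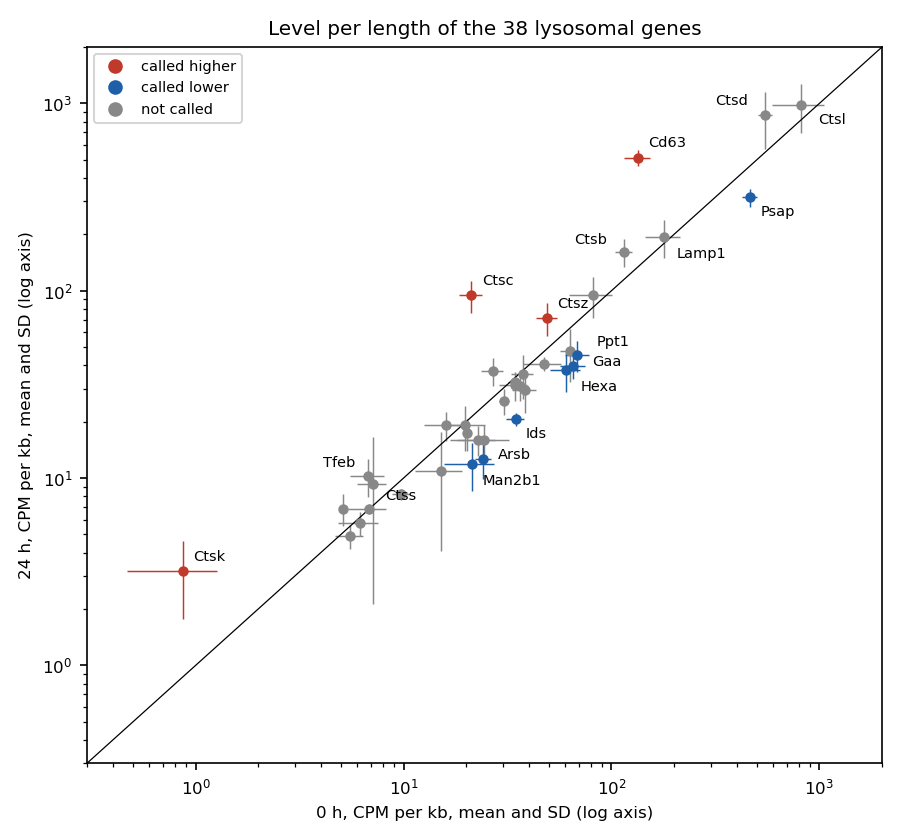
Level per length of each of the 38 lysosomal genes at 24 h against 0 h, in TMM-scaled CPM per kilobase with SD bars, on log axes with the line of equality. Ctsc, Cd63 and Ctsk lie farthest above the line, and Ctsl and Ctsd are the most abundant at both times.

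Other genes of the pathway were taken from 8 lists, of which 140 genes were tested. Of these 19 were higher and 19 lower, 27.1% in all, against 28.2% of all genes tested. Without 0 h replicates 1 and 3 the lower genes numbered 8 and 5, without 24 h replicates 1 and 2 they numbered 7 and 12, and with library totals alone 11. Among the other proteases and nucleases 1 was higher and 2 lower of 12. Lgmn, for the asparaginyl endopeptidase that processes cathepsins, went from 106 ± 8.80 to 187 ± 45.5 CPM (log2 fold change 0.82, adjusted p = 0.0145, and 0.0526 without 0 h replicate 2, within 0.00106 to 0.224 over the alternatives).

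Ctsf, for the cysteine protease cathepsin F, went from 135 ± 18.9 to 47.2 ± 7.96 CPM, a fall by 1.51 ± 0.17 (SE) on the log2 scale (adjusted p = 0.000533). Its direction was opposite to that of Ctsc and Ctsk. Cpq, for a secreted carboxypeptidase, fell by 0.75 on the log2 scale (adjusted p = 0.0145), where leaving out 0 h replicate 3 gave 0.0538 and leaving out 24 h replicate 1 gave 0.053, within 0.00218 to 0.299 over the alternatives. Cpq shares 160 exonic bases with an antisense gene.

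Of 16 other glycosidases, sulfatases and activators 2 were higher and 2 lower, 25.0% in all, against 28.2% of all genes tested. Hyal2, for a hyaluronidase, rose by 0.74 on the log2 scale (adjusted p = 0.015, and 0.0601 without 0 h replicate 2, within 0.00442 to 0.32 over the alternatives). Gm2a, for the activator that presents GM2 ganglioside to the Hexa enzyme, fell by 0.72, from 167 ± 35.2 to 101 ± 25.3 CPM.

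Hexa and Gm2a, which act together on GM2 ganglioside, were thus both lower at 24 h. The adjusted p of Gm2a was 0.0437, and 0.116, 0.16, 0.0984 and 0.112 without 0 h replicates 1 and 3 and 24 h replicates 1 and 2, within 0.00208 to 0.449.

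Among the other membrane proteins and transporters Gpnmb had the largest rise. Gpnmb, for a glycoprotein of melanosomes and of lysosomes in macrophages, went from 49.3 ± 25.4 to 911 ± 376 CPM, 18.5-fold (adjusted p = 0.000444). Markers of pigmented tissue, summed, were at 183 to 339 CPM at 0 h and 117 to 1169 CPM at 24 h, with Dct (269 ± 213 CPM at 24 h) and Tyrp1 (174 ± 153 CPM at 24 h) highest over both times, Pmel at 193 ± 151 CPM at 24 h, and none of 9 at 0 throughout. Among all genes tested 15.2% were higher and 13.0% lower. Of 8 tested markers 3 were higher (Dct, Pmel and Mlana), each with overlapping groups, and 3 lower. The lower ones were Rpe65 (16.7-fold), Rgr (29.9-fold) and Lrat (55.6-fold, on few counts at 24 h). Each of these lay without overlap and was called in all 16 alternatives. Tyrp1 and Tyr were not called (adjusted p = 0.217 and 0.0728). The part of these markers in the Gpnmb level was not tested. Gpnmb was highest in 24 h replicate 1, as was the sum of these markers. In 24 h replicate 2 the sum was 117 CPM, below that of every 0 h library. Gpnmb in that same library was at 479.9 CPM, above its highest 0 h value of 78.4 CPM.

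Cd68, a macrophage and lysosome glycoprotein, went from 5.91 ± 2.13 to 34.4 ± 5.31 CPM, 5.85-fold (adjusted p = 0.000489). In all 5 of 25 members of this list were higher and 4 lower, 36.0% together, against 28.2% of all genes tested. Lmbrd1, for an exporter of cobalamin, fell by 0.70 on the log2 scale (adjusted p = 0.00957). Slc38a9, for the arginine sensor that signals to mTORC1, fell by 0.64 (adjusted p = 0.0397), and its adjusted p was 0.138, 0.137, 0.121 and 0.0996 without 0 h replicates 2 and 3 and 24 h replicates 1 and 3, within 0.0261 to 0.575, and 0.111 with library totals alone.

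Of 16 other proton pump subunits 2 were higher and 0 lower, with 1 lower at an unadjusted p under 0.05 and 0 lower by DESeq2 and limma-voom. The share called was 12.5%, against 28.2% of all genes tested. Tcirg1, for the a3 isoform of the membrane sector found in osteoclasts and phagocytes, went from 15.1 ± 5.02 to 72.6 ± 1.88 CPM, 4.81-fold (adjusted p = 0.000335). Atp6v1b2, for the B2 subunit, rose 1.64-fold (adjusted p = 0.0261), and its adjusted p was 0.0874, 0.0819, 0.0588 and 0.0701 without 0 h replicates 2 and 3 and 24 h replicates 1 and 2, within 0.00364 to 0.41. Among 14 genes that sort lysosomal enzymes 14.3% were called. Of these 1 was higher, Gga2 (log2 fold change 0.67, adjusted p = 0.00819), and 1 lower, Sort1. Sort1 encodes sortilin, a receptor that carries prosaposin and other cargo from the Golgi, and went from 282 ± 39.6 to 131 ± 30.6 CPM, 2.15-fold lower (adjusted p = 0.0047).

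**Figure D5:**
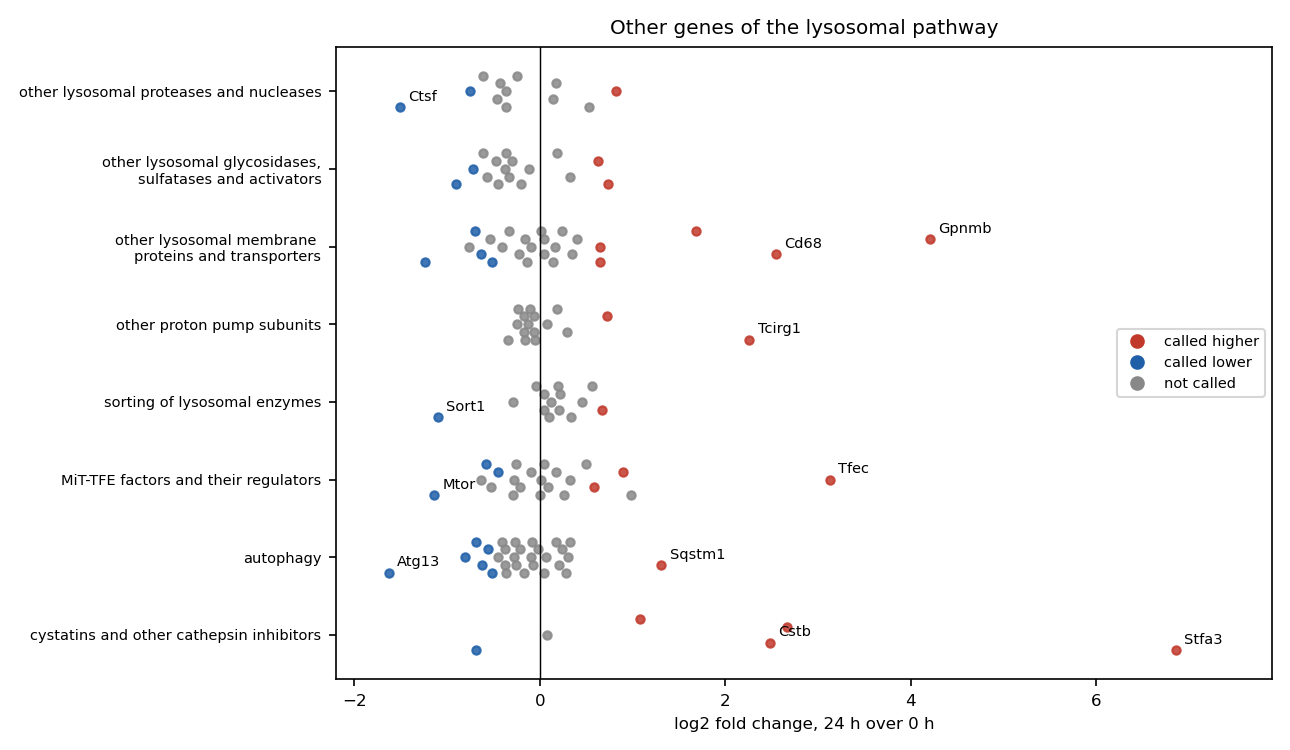
Log2 fold change of 24 h over 0 h for the tested genes of 8 further lists of the lysosomal pathway, each point a gene. Gpnmb, Cd68, Tcirg1, Tfec and Stfa3 lie far to the right, where the fitted value of Stfa3 rests on a single count at 0 h.

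Of 22 MiT-TFE factors and regulators 3 were higher and 3 lower, 27.3% in all, near the 28.2% of all genes tested. Tfe3, for the family member closest in use to TFEB, was at 43.6, 47.4 and 41.7 CPM at 0 h and 66.0, 67.4 and 65.4 CPM at 24 h. The 24 h values were nearly equal and all above the 0 h values. Tfe3 rose 1.5-fold, by 0.58 ± 0.12 (SE) on the log2 scale (adjusted p = 0.00794, from 0.00141 to 0.719 over 16 alternatives, and lost only against a 1.5-fold change).

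Tfec, the family member of macrophages, was rare at 0.215 ± 0.202 and 1.98 ± 0.725 CPM and was called higher (log2 fold change 3.13 ± 0.85 SE, adjusted p = 0.0255). Its adjusted p was 0.0551, 0.0832, 0.0723 and 0.0511 without 0 h replicates 1 and 3 and 24 h replicates 1 and 3, within 0.00687 to 0.0832. Mitf, the factor of pigment cells, was at 7.92 ± 1.13 and 15.7 ± 11.4 CPM with an adjusted p of 0.173. It was called without 24 h replicate 2 (0.0254, within 0.0254 to 0.634 over 16 alternatives). Its log2 fold change of 0.98 became 0.29 without 24 h replicate 1.

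Fnip2, for a partner of folliculin that tunes TFE3 and TFEB, rose by 0.90 on the log2 scale (adjusted p = 0.0123). Mtor, the kinase that holds TFEB in the cytosol, went from 519 ± 142 to 235 ± 67.8 CPM, a fall by 1.14 ± 0.27 (SE) on the log2 scale (adjusted p = 0.0143). Without 0 h replicates 1 and 3 and 24 h replicate 1 its adjusted p was 0.0546, 0.0558 and 0.052, within 0.000232 to 0.0824. Mlst8, for a subunit of the same complex, fell by 0.58 (adjusted p = 0.0163), and its adjusted p was 0.0504, 0.058, 0.0575 and 0.0566 without 0 h replicates 1, 2 and 3 and 24 h replicate 1, within 0.00984 to 0.727. With library totals alone it was 0.0521. Mlst8 shares 997 exonic bases with Bricd5 on the opposite strand.

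Of 29 autophagy genes 1 was higher and 6 were lower, 24.1% in all, against 28.2% of all genes tested. By direction these were 3.45% and 20.7%, against 15.2% and 13.0% of all genes tested. Sqstm1, for the cargo receptor p62, went from 220.0 ± 33.7 to 547 ± 114 CPM, 2.49-fold (adjusted p = 0.00209). Atg13 and Ulk1, for the complex that starts autophagosomes, fell by 1.63 and 0.56 on the log2 scale (adjusted p = 0.000491 and 0.0112). Atg13 went from 127 ± 26.3 to 41.2 ± 4.74 CPM.

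Cystatins and other inhibitors hold cathepsins in check. Of 13 found 6 passed the filter on low counts, some through their 24 h counts alone, and 4 were higher and 1 lower. Of all genes tested 15.2% were higher and 13.0% lower. Cstb, for the intracellular inhibitor cystatin B, went from 12.0 ± 0.810 to 67.2 ± 16.7 CPM, 5.58-fold (adjusted p = 0.000115). Stfa3, for a stefin of granulocytes, was read 1 time over the 0 h libraries and 152 times over the 24 h libraries. Scaled to depth that is 160.3 times as much, with exact 95% counting limits of 28.3 and 6374. Cst3, for the secreted inhibitor cystatin C, fell by 0.69 on the log2 scale, from 383 ± 108 to 238 ± 20.7 CPM (adjusted p = 0.048). That call was lost without any of 5 libraries, with adjusted p of 0.148 and 0.169 without 0 h replicates 1 and 3 and 0.14, 0.116 and 0.0608 without 24 h replicates 1, 2 and 3, within 0.00777 to 0.506. With library totals alone it was 0.0547 and with limma-voom 0.0518.

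Markers of the lens and of other eye tissues were examined over the same interval. Lens epithelium markers summed to 86574 to 146211 CPM at 0 h and 53856 to 67201 CPM at 24 h. Cryaa and Cryab made up most of this sum (88070.5 and 25173 of 116294 CPM, means at 0 h), so it mainly follows these crystallins. Of 10 markers 5 were lower (Cryab, Foxe3, Slc38a3, Fgfr3 and Npnt). None was higher, also 0 at an unadjusted p under 0.05 and by DESeq2 and limma-voom. Cryaa, Pax6, Pdgfra, Gja1 and Cdh1 were not called, with log2 fold changes from -1.22 (Pdgfra) to -0.14 (Gja1) and -0.07 (Cdh1). Of all genes tested 15.2% were higher and 13.0% lower. Lens fiber markers, led by Crygs (6728 ± 2519 CPM at 0 h) and Cryba2 (4458 ± 1309.7 CPM at 0 h), summed to 14228 to 23213 CPM at 0 h and 5735 to 6591 CPM at 24 h, with all 9 tested lower. Markers of cornea and conjunctiva summed to 756 to 1119 CPM at 0 h and 348 to 695 CPM at 24 h, and 2 of 5 tested were higher and 1 lower. The sum was mostly Aldh3a1, for a corneal crystallin, which was lower (874 ± 202 CPM at 0 h and 429 ± 165 CPM at 24 h). It therefore mainly follows this gene, and the amount of corneal or conjunctival tissue was not measured. Krt5, for a keratin of basal epithelium, was higher (1.07 ± 0.78 and 20 ± 17.4 CPM), as was Krt12, the corneal keratin (0.871 ± 0.737 and 15.1 ± 18.4 CPM), both with overlapping groups and called in 9 and 6 of 15 alternatives. Photoreceptor markers had 0 of 8 called, and 0 at an unadjusted p under 0.05 and by DESeq2 and limma-voom. The part of these tissues in the lysosomal values was not tested.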

How the data were processed

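RNA sequencing libraries of 0 h and 24 h tissue (n = 3 each) were compared. Per the file headers, the authors' tables give raw counts for each gene, its length and an RPKM value. The deposited RPKM equalled count over length and library total, and served only as an alternative for levels. Per the submitters' processing notes, the mm10 build was used with TopHat2 2.1.0 and HTSeq 0.6.1p1, and edgeR 3.16.5, SAMtools 1.4, bedtools 2.17, Trim Galore 0.4.4 and FastQC are also named. The sources used here give neither annotation nor strand setting, and the labels name both a stranded and another TruSeq kit.

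Genes were filtered with filterByExpr, scaled by TMM and tested with edgeR 4.0.16 (R 4.3.3, quasi-likelihood test, Benjamini-Hochberg adjustment over the 13956 genes tested). Adjusted p-values are from this test where no other is mentioned. The SE of a log2 fold change is its size over the square root of the F statistic, and is approximate. Alternatives used DESeq2 1.42.0, limma 3.58.1 (voom), RLE, upper-quartile and library-total scaling, no filter, a stricter filter (5 CPM in 3 libraries), a test against a 1.5-fold change, a replicate block, and each library left out. A photoreceptor covariate was added after the data were seen. Ranges of adjusted p over the alternatives include this covariate and the test against a 1.5-fold change, which asks another question. The 1.5-fold test gave the upper end for Ctsz, Gaa, Hexa, Man2b1, Ids, Arsb, Psap, Ppt1 and Tfe3. For most other genes the source of the upper end is not given here. The replicate block gave the lower end for Asah1, and also called Ctsb and Ctsd. The covariate gave the lower end for Tpp1, Gusb, Galc and Galns. P-values measure the spread between these libraries, and counting intervals cover counting error only. The procedure was tested on simulated data.

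The 38 genes and the other lists were chosen with earlier results of these data known. Called members, and Tfeb, Lamp1, Lamp2, Ctsb, Ctsd, Ctsl, Ctss, Ctsk and Atp6v1a, are given in every library. Each pathway list is represented by the 2 called genes with the lowest p in each direction, with Tfe3, Tfec and Mitf always named, and each cell type list by its 2 most abundant genes. Some genes that this rule names are not reported here. Glmp and Ly6g were not matched, and Adgre1 was matched as Emr1. Promoters are RefSeq windows of GRCm38.p6, and exon overlaps come from GENCODE on GRCm38.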

Additional observations from a re-analysis of the deposited data

How the results depend on the processing

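Of 175 values of the 11 called lysosomal genes under the alternatives, 175 kept their direction and 42 no longer passed the threshold. Of 432 values of the 27 genes not called, 24 passed it and 21 changed sign. Higher lysosomal genes numbered 4, and 7 with library totals alone, 2 against a 1.5-fold change and 2 to 4 with 1 library left out. Lower ones numbered 7, and 0 against a 1.5-fold change, 12 with the photoreceptor covariate and 2 to 10 with 1 library left out. Pathway genes numbered 19 higher and 19 lower, against 8 and 3 in the 1.5-fold test, where all genes gave 1060 and 629 in place of 2125 and 1817. Lower pathway genes numbered 11 with library totals alone, 29 with the photoreceptor covariate and 5 to 18 with 1 library left out. Lower genes of all numbered 1041 to 1648 with 1 library left out.

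The share of counts in the 38 genes was 0.772% at 0 h and 0.921% at 24 h, and 0.617% and 0.722% without Ctsl.

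With the replicate number as a block, 7 lysosomal genes were higher and 10 lower. Deviations of same-numbered libraries correlated at 0.087, 0.215 and 0.397, and nothing in the labels says that the numbers pair the libraries.

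Signs changed only in genes not called. With 1 library left out the log2 fold change ran from -0.00 to 0.47 for Ctsl, -0.45 to 0.76 for Ctss, -0.08 to 0.26 for Lamp1, -0.28 to 0.17 for Glb1, -0.12 to 0.16 for Manba, -0.28 to 0.06 for Sgsh, -0.23 to 0.14 for Lipa and -0.10 to 0.00 for Atp6v1a. With library totals alone it was 0.04 for Glb1, 0.02 for Lipa and 0.00 for Atp6v1a. With the photoreceptor covariate it was -0.22 for Ctss, -0.05 for Lamp1 and -0.05 for Manba, and Manba was at -0.01 with upper-quartile scaling and -0.00 with the stricter filter. The cause of these changes was not tested. Depth limits Ctsk, Ctss and Tfec, which rest on few counts, and 3 libraries a time limit every test.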

Other observations

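Some of the lysosomal genes are neighbours on a chromosome. Ctsk and Ctss lie 17.4 kilobases apart on chromosome 3 with no gene of the deposited tables between them, and Ctsk rose while Ctss was not called. Gaa and Sgsh lie 57.8 kilobases apart on chromosome 11 with Eif4a3 between them, and Gaa fell while Sgsh was not called. Tpp1 and Smpd1 lie 186.5 kilobases apart on chromosome 7 with 8 genes between them, and neither was called. Whether the neighbours differ in their change was not tested.

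The ratio of Cstb to Cst3, an intracellular over a secreted inhibitor of cathepsins, was 0.0334 ± 0.0108 at 0 h and 0.285 ± 0.0765 at 24 h. As a ratio of CPM it did not overlap between times. Cstb and Cst3 were called in opposite directions in these same data, so the ratio restates those calls and is no separate support. Values of Cst3 alone overlapped between times. The ratio of Tfe3 to Tfeb was 2.36 ± 0.401 and 2.37 ± 0.653.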
